A study of Homo sapiens with 18 samples.

Results

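The change that loss of ATG7 made to small RNAs in extracellular vesicles (EVs) was set against the change it made in the cells that released them. The contrast was the vesicle change (ATG7-/- minus wild type) minus the cell change (ATG7-/- minus wild type), called the interaction here, and it used 12 of the 18 libraries of the series. These were 3 libraries each of wild type vesicles, ATG7-/- vesicles, wild type cells and ATG7-/- cells, chosen by their labels. All were HEK293T, a human embryonic kidney line, kept 24 h without serum before collection. The ATG7-/- libraries came from 1 clone, F2, so the genotype and the clone cannot be told apart. The vesicle preparations and cell lysates were bulk samples, in which fewer vesicles carrying an RNA and fewer copies per vesicle cannot be told apart. The ATG7 mRNA was not analysed here, so the knockout label was not checked against its gene, and small RNAs hold no defining marker of this line.

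ATG7 is the E1-like enzyme that starts both ubiquitin-like conjugation reactions of autophagy, the joining of ATG12 to ATG5 and the attachment of LC3 to membrane lipids. Small nucleolar RNAs (snoRNAs) sit in the nucleolus within ribonucleoproteins: C/D box snoRNAs guide ribose methylation and H/ACA box snoRNAs guide pseudouridylation, mostly of ribosomal RNA. Many are cut from introns of ribosomal protein genes and of noncoding host genes such as GAS5 and SNHG1. MicroRNAs repress target mRNAs through a seed at their start, tRNAs carry amino acids to the ribosome and are also found outside cells, often as fragments, and Y and vault RNAs are short cytoplasmic RNAs of larger ribonucleoproteins.

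Values are normalised reads, the authors' reads divided by 1 size factor per library. Reads assigned to features ran from 1881080 to 3382605 in the 6 vesicle libraries and from 1188388 to 1606102 in the 6 cell libraries. Pearson's r between replicates, across features, was 0.982 to 0.994, and wild type vesicle replicate 1 and the ATG7-/- cell libraries stood farthest from their group mates. Of the 2462 features listed, 890 had 10 or more normalised reads in 3 or more of these 12 libraries and were tested. A call is an adjusted p under 0.05 (limma on log2 of the value plus 1). Every change below is on that log2 scale, with its standard error (SE), and so understates the change of low features.

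Most features called in vesicles had no call in cells, and the classes went separate ways. The interaction was called for 466 features, 52.4% of those tested, with 216 higher (24.3%) and 250 lower (28.1%). Of the 250 lower calls, 217 were snoRNAs or small Cajal body RNAs (scaRNAs), and of the 216 higher calls 206 were tRNA genes. The split depended on scaling: it was 144 higher and 287 lower with TMM over all tested features (median interaction moved by -0.24), and 53 and 318 with library totals (moved by -0.46). With TMM factors from microRNAs it turned, to 259 higher and 212 lower (moved by 0.20). It also depended on repeated tRNA copies: at the deposited scaling it was 123 and 248 of 726 features with each tRNA isodecoder counted once. The vesicle change alone was called for 562 features (63.1%; 281 higher and 281 lower, 31.6% each), and the cell change for 103 (11.6%; 47 higher, 5.28%, and 56 lower, 6.29%). Over all features tested the median was 0.07 for the interaction, 0.10 for the vesicle change and -0.09 for the cell change.

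Sorting features by the 3 calls gave the following groups. In 407 features the vesicle change and the interaction were called the same way with no call in cells, 173 higher and 234 lower. A further 117 had a vesicle call only, for which neither a matching cell change nor a difference from it was shown. In 27 features vesicles and cells were called the same way and no interaction was called. Another 34 had a cell call and an interaction call without a vesicle call, and in 8 the vesicle and cell calls were opposite. These groups rest on the scaling of the cell libraries: with factors from microRNAs, cell calls were 15 higher and 462 lower, and the 407, 27, 34 and 8 features became 143, 73, 145 and 69. The 281 features called lower in vesicles had a median vesicle change of -1.71 and a median cell change of -0.10. Of these 281, 237 had a lower interaction. The 281 called higher had medians of 0.89 in vesicles and -0.04 in cells, and 180 of them had a higher interaction.

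**Figure D1:**
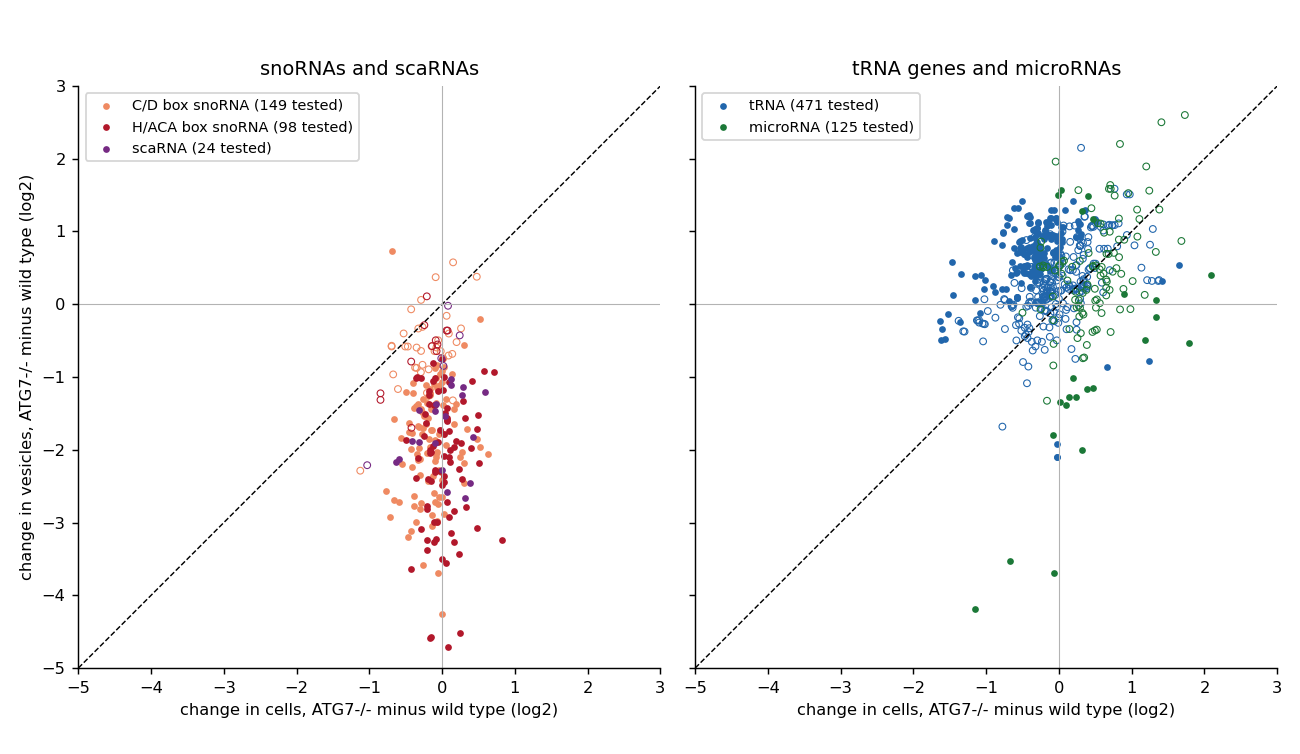
Change in vesicles (vertical axis, log2) against change in cells (horizontal axis, log2) for each tested snoRNA and scaRNA (left) and tRNA gene and microRNA (right); filled points have a called interaction, and the dashed line marks equal change. The snoRNAs hang below 0 near the vertical midline, while the microRNAs lie along the dashed line and the tRNA genes above it.

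Some of the snoRNAs with large differences are shown first, because the 2 families are told apart by short boxes that can be read in the sequence. The 3 H/ACA box snoRNAs below come from GENCODE release 29 (GRCh38) and read 5′ to 3′. Capitals mark the hexamer of the H box form ANANNA nearest the middle, and the ACA near the 3′ end.
ACA28: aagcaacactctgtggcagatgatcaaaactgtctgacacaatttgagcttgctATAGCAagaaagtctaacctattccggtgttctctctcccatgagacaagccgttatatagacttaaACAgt
ACA62: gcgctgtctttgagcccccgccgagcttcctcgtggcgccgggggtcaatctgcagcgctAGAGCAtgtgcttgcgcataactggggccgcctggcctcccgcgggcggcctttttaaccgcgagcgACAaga
ACA31: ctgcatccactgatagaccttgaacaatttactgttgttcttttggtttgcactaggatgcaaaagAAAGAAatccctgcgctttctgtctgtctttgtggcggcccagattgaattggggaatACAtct
ACA28 (SNORA28) lies within EIF5 on chromosome 14 (103337849 to 103337974, plus strand), ACA62 (SNORA50C) within SNHG25 on chromosome 17 (64146339 to 64146471, plus strand) and ACA31 (SNORA31) within TPT1 on chromosome 13 (45337480 to 45337609, minus strand).

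ACA28 held 441, 618 and 680 normalised reads in the 3 wild type vesicle libraries and 25.1, 29.2 and 18.6 in the ATG7-/- vesicles. In cells it held 222, 260 and 242 in wild type and 333, 236 and 298 in ATG7-/-. The vesicle groups were far apart, while the cell groups overlapped. Its interaction was -4.77 (SE 0.29, adjusted p = 3.12e-09), from a vesicle change of -4.52 (SE 0.21) and a cell change of 0.25 (SE 0.21, adjusted p = 0.456).

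ACA62 gave an interaction of -4.42 (SE 0.26, adjusted p = 3.12e-09). Its vesicle levels were 2340, 1537 and 1949 in wild type and 75.2, 95.8 and 69.0 in ATG7-/-, beside 618, 690 and 660 in wild type cells and 701, 566 and 510 in ATG7-/- cells. U72, an H/ACA box snoRNA from an intron of RPL30, had the largest interaction of the features named by size, -4.79 (SE 0.34, adjusted p = 1.44e-08), and a cell change of 0.09 (95% interval -0.42 to 0.59). ACA16 (SNORA16A) of SNHG12 came to -4.42 (SE 0.44), ACA5c of TBRG4 to -3.67 (SE 0.40) and ACA50 of CNOT1 to -3.61 (SE 0.34). None of these 5 had a called cell change.

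ACA31 was the 1 snoRNA whose vesicle and cell changes were both called and opposite. It fell from 267, 283 and 369 to 23.7, 36.2 and 35.8 normalised reads in vesicles, and rose from 555, 532 and 532 to 1117, 877 and 885 in cells. The groups did not overlap in either compartment. The interaction was -4.05 (SE 0.27, adjusted p = 6.87e-09), with a cell change of 0.82 (SE 0.19, adjusted p = 0.0115). The 8 opposite calls are the least settled group: their number ran from 0 to 11 when 1 library was left out, with 0 without wild type cell replicate 2, 1 without wild type cell replicate 3 and 2 without wild type vesicle replicate 3 or ATG7-/- vesicle replicate 1.

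Of 98 H/ACA box snoRNAs tested, 86 had a lower interaction and none a higher one, with a median interaction of -1.88. Their median vesicle change was -1.90 and their median cell change -0.04, and 91 were called lower in vesicles. Among the most abundant members, ACA21, in RPL23, came to -1.07 (SE 0.33), ACA10, in RPS2, to -1.67 (SE 0.29) and U67, in EIF4A1, to -1.88 (SE 0.32). The 12 members not called included ACA24 at -0.49, SNORA38B at -0.04 and ACA7B at -0.41. These 3 and the further snoRNAs named as not called below were picked after their values were seen.

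The scaRNAs, which guide modification of spliceosomal RNAs in Cajal bodies, moved in the same direction, with 19 of 24 lower and a median interaction of -1.49. Their median cell change was 0.03. ACA26 held 1061, 676 and 677 normalised reads in wild type vesicles and 144, 180 and 164 in ATG7-/- vesicles. Its cell values overlapped, at 948, 1090 and 1007 against 1231, 956 and 892, and the interaction was -2.28 (SE 0.27, adjusted p = 3.24e-06). The mgU2-25/61 and HBII-382 scaRNAs had similar values, -1.54 each, and share 1 locus.

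Of the C/D box family, 2 members are printed, because they went opposite ways: snR38A fell in vesicles relative to cells and U22 did the reverse. Capitals mark the D box CTGA within the last 20 bases, as it reads on the given strand only; neither holds the C box TGATGA within its first 25 bases.
snR38A: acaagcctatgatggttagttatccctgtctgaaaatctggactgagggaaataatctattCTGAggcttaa
U22: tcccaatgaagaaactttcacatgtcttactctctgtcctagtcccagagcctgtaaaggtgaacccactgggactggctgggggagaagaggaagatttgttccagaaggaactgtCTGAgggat
The snR38A snoRNA (SNORD1A) lies within SNHG16 on chromosome 17 (76561634 to 76561705, plus strand) and U22 (SNORD22) within SNHG1 on chromosome 11 (62852910 to 62853035, minus strand). Among the 124 C/D box snoRNAs of the table with a sequence, 60.5% held TGATGA in that first window and 98.4% held CTGA. Of the 107 H/ACA box snoRNAs, 94.4% held the middle hexamer and 93.5% the final ACA.

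In vesicles snR38A fell from 121, 131 and 101 to 5.27, 9.34 and 10.6 normalised reads. Its cell values were 82.8, 73.9 and 68.6 in wild type and 72.5, 84.3 and 61.4 in ATG7-/-. The vesicle groups were far apart and the cell groups overlapped. The interaction was -3.64 (SE 0.34, adjusted p = 3.63e-07), from a vesicle change of -3.70 (SE 0.24) and a cell change of -0.05 (95% interval -0.56 to 0.45).

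Among 149 C/D box snoRNAs tested, 112 had a lower interaction and 1, U22, a higher one. The median interaction was -1.28, the median vesicle change -1.44 and the median cell change -0.17. U22, which acts in cleavage of the ribosomal RNA precursor, held 3505, 2902 and 2714 normalised reads in wild type vesicles and 4505, 6687 and 4147 in ATG7-/- vesicles. In cells it held 227, 278 and 197 in wild type and 170, 169 and 104 in ATG7-/-. The groups did not overlap in either compartment, and the directions were opposite. The interaction was 1.41 (SE 0.31, adjusted p = 0.0013), the vesicle change 0.73 (SE 0.22, adjusted p = 0.00827) and the cell change -0.68 (SE 0.22, adjusted p = 0.0539).

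The other snoRNAs of ribosomal RNA cleavage had lower interactions or none called. U3, the most abundant of them, is listed as 5 copies that hold nearly the same reads and count as 1 RNA. Its vesicle values were 148976, 102482 and 105434 in wild type and 44275, 62305 and 44597 in ATG7-/-, and its interaction was -1.07 (SE 0.30, adjusted p = 0.00671). U8, needed for the large-subunit precursors, came to -2.91 (SE 0.29, adjusted p = 6.08e-07), with cell values of 7069, 6813 and 6468 against 7212, 6929 and 6664. U17a came to -1.18 (SE 0.27, adjusted p = 0.00174), and U13 to -0.52 (SE 0.25, adjusted p = 0.0888). Outside U3 the list had 5 lower and 1 higher of 7. That share of lower calls, 71.4%, stands beside 75.2% of all C/D box snoRNAs tested and 87.8% of H/ACA box snoRNAs. Over all features it was 28.1%.

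By host gene, the snoRNAs of GAS5, a noncoding host whose spliced RNA is turned over by translation-linked decay, had the smallest median interaction of the 6 host lists. Of 10 GAS5 snoRNAs 6 had a lower interaction, with medians of -0.94 for the interaction, -1.42 in vesicles and -0.45 in cells. Of all C/D box snoRNAs tested, 75.2% had a lower interaction, with medians of -1.28, -1.44 and -0.17. U44 of that host held 439, 368 and 346 normalised reads in wild type vesicles and 173, 174 and 163 in ATG7-/- vesicles. In cells it held 21463, 19128 and 21670 against 15801, 14679 and 10846. It was lower in both without overlap, by -1.17 (SE 0.17) and -0.61 (SE 0.17, adjusted p = 0.029), and the interaction of -0.56 (95% interval -1.06 to -0.06) had an adjusted p of 0.0572. Its host mate U79 came to -1.31 (SE 0.24, adjusted p = 0.000292), and U76, the most abundant GAS5 snoRNA in cells, to 0.13 (SE 0.37, adjusted p = 0.796).

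The remaining hosts had lower interactions throughout, apart from U22 in SNHG1, as most snoRNAs did whatever their host. Lower calls made up 75.2% of all C/D box snoRNAs tested (median -1.28) and 87.8% of all H/ACA box snoRNAs (median -1.88). The lists differ in box type, since that of TAF1D is all H/ACA box and that of SNHG12 holds both. A part of the host gene beyond the box type was not tested. Lower calls numbered 4 of 4 in RPL13A (median -1.65), 7 of 8 in SNHG1 (median -1.33), 4 of 4 in SNHG12 (median -2.02), 6 of 6 in TAF1D (median -2.05) and 7 of 7 in EIF4A1 and EIF4A2 (median -1.83). Members of 1 host still spread: in RPL13A, U34 came to -0.88 (SE 0.22) and U35A to -2.38 (SE 0.33), and in EIF4A2, snR39B came to -0.77 (SE 0.24) and E3 to -1.83 (SE 0.24). The call for snR39B was lost when scaling rested on microRNAs.

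**Figure D2:**
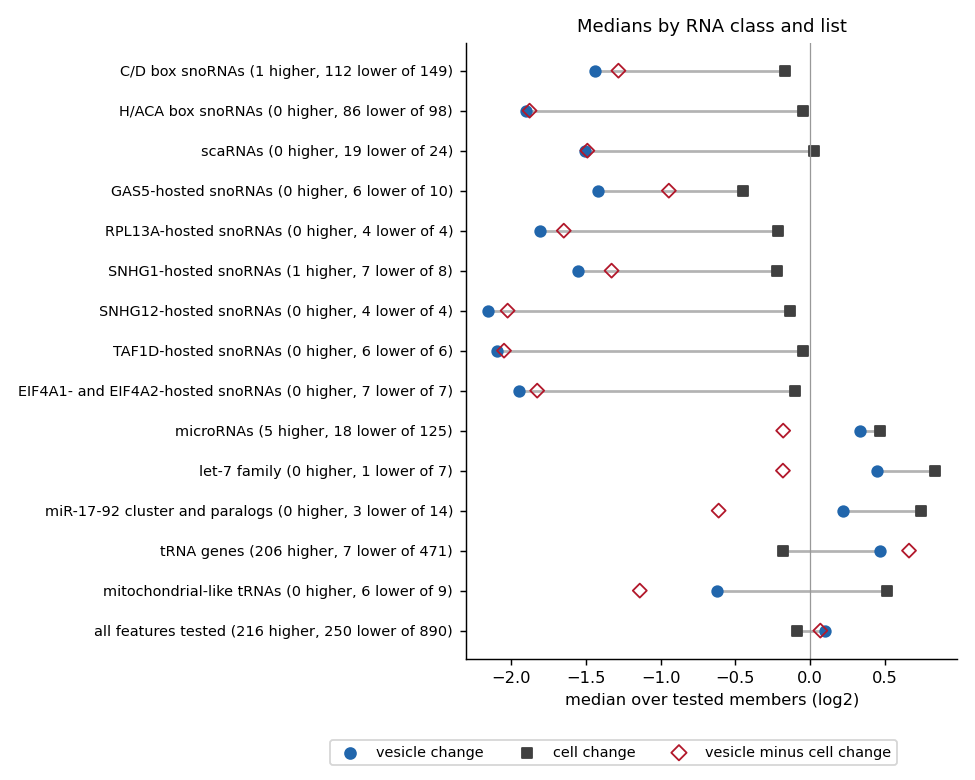
Median vesicle change (circles), cell change (squares) and interaction (diamonds) over the tested members of each class or list, on a log2 axis, with the number of interaction calls in each label. For the snoRNA lists the circle and the diamond lie close together at the left, for let-7 the circle and the square both lie above 0, and the mitochondrial-like tRNAs have the circle below 0 and the square above.

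Length and base composition of the snoRNAs followed the interaction weakly at most. Across the 97 tested H/ACA box snoRNAs with a sequence Spearman's rho of the interaction was 0.14 with length and 0.07 with GC content, and across 120 C/D box snoRNAs it was 0.01 and -0.14. These are descriptions across RNAs of the same 12 libraries. The median length was 133 bases among the H/ACA box snoRNAs with a lower interaction and 139.5 among those not called.

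Most of the microRNAs called higher in vesicles had a positive cell change, a minority of them called. Of 38 microRNAs called higher in vesicles, 36 had a positive cell change, 13 were called higher in cells, and 5 had a higher interaction (13.2%). Their median change was 1.23 in vesicles and 0.71 in cells. The 236 tRNA genes called higher in vesicles differed from that, with a median cell change of -0.12 and 171 higher interactions (72.5%). Over all 125 microRNAs tested the interaction was lower for 18 and higher for 5, with medians of -0.18 for the interaction, 0.34 in vesicles and 0.47 in cells. These cell values depend on the scaling: with factors taken from microRNAs the median cell change of microRNAs was -0.00 and that of all features -0.59, against -0.09.

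**Figure D3:**
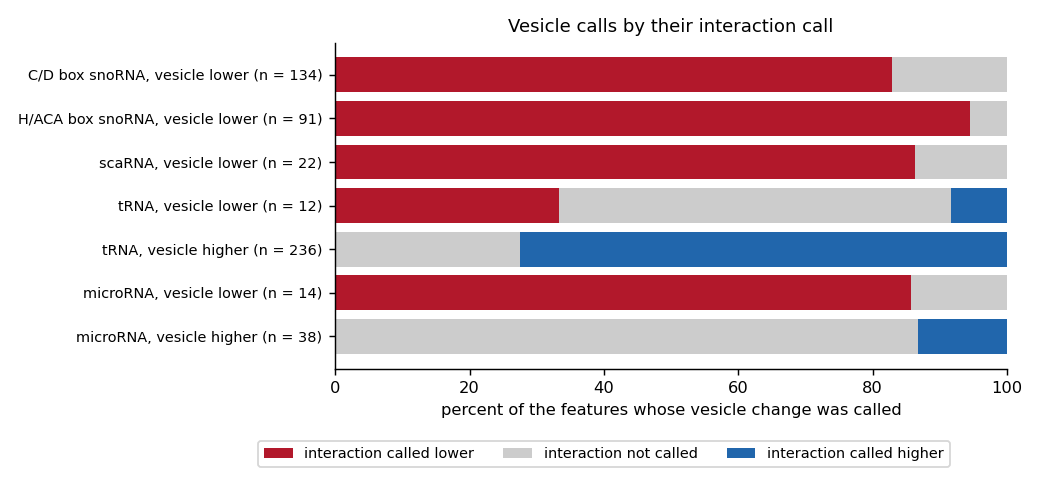
Each bar is the set of features of 1 class whose vesicle change was called in 1 direction, split by the interaction call, in percent of that set. Most of the snoRNA bars are called lower, 72.5% of the tRNA bar for higher vesicle levels is called higher, and 13.2% of the matching microRNA bar is.

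Mature sequences are shown for the microRNAs that stand for these behaviours, from RefSeq (GRCh38.p14), in which 104 of the 125 tested names were found. Capitals mark the seed, bases 2 to 8. The let-7 members share 1 seed, as do miR-17-5p with miR-93-5p and miR-19a-3p with miR-19b-3p.
hsa-let-7b-5p: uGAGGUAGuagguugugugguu
hsa-let-7a-5p: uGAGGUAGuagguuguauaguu
hsa-let-7f-5p: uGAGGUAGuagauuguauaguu
hsa-miR-28-3p: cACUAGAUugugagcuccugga
hsa-miR-17-5p: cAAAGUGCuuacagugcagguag
hsa-miR-93-5p: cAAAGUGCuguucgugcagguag
hsa-miR-19a-3p: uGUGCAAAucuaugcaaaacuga
hsa-miR-19b-3p: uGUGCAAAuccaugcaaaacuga
hsa-miR-9-3p: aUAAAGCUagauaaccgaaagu
hsa-miR-6724-5p: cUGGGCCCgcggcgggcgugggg

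The let-7 microRNAs, which restrain growth and stem cell genes, were higher in ATG7-/- cells and partly in vesicles. Of 7 tested, 4 were called higher in cells and 4 in vesicles, with medians of 0.84 and 0.45. Of all 125 microRNAs tested 24 were called higher in cells and 38 in vesicles, with medians of 0.47 and 0.34. Over all features the shares called higher were 5.28% in cells and 31.6% in vesicles. In vesicles let-7b-5p went from 46.3, 15.2 and 27.7 to 62.0, 72.4 and 70.3 normalised reads, and in cells from 36.9, 36.3 and 32.9 to 115, 82.7 and 85.7. Neither pair of groups overlapped. Its vesicle change was 1.30 (SE 0.29) and its cell change 1.38 (SE 0.29), so that the interaction was -0.08 with a 95% interval of -0.94 to 0.79 (adjusted p = 0.888). In let-7f-5p, with the same seed, the cells rose by 0.89 while the vesicle change was 0.14, and the interaction was -0.75 (SE 0.25, adjusted p = 0.0192). That call was lost without wild type cell replicate 2 and with microRNA scaling.

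Other microRNAs called higher in both compartments included miR-28-3p, with 10.1, 8.30 and 4.38 against 26.4, 40.9 and 23.9 normalised reads in vesicles and 9.56, 7.26 and 5.84 against 20.6, 13.9 and 21.4 in cells. Its interaction of 0.69 had a 95% interval of -0.34 to 1.73. The muscle microRNA miR-1-3p, miR-1226-3p and miR-151a-3p made up the rest of the 5 largest such cases, with interactions of 0.87, 0.32 and 0.35 that were not called. All 13 microRNAs of this kind were higher. Leaving out 1 library took the whole group of 27 to between 11 and 34, with 11 without wild type cell replicate 2, 13 without wild type cell replicate 3, 14 without ATG7-/- cell replicate 3 and 17 without wild type cell replicate 1.

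In 6 microRNAs the cell level rose and no vesicle change was called, so that the interaction was lower. The miR-19b-3p of the miR-17-92 cluster, known for promoting proliferation, held 204, 285 and 249 normalised reads in wild type vesicles and 190, 227 and 122 in ATG7-/- vesicles, which overlapped. In cells it held 335, 230 and 245 against 442, 677 and 742, which did not. The interaction was -1.67 (SE 0.34, adjusted p = 0.000709). Its seed mate miR-19a-3p came to -1.51 and its cluster mate miR-17-5p to -1.28, while miR-93-5p, with the seed of miR-17-5p, came to -0.08 and was called higher in both compartments. Of 14 members of the cluster and its paralogs 3 had a lower interaction (21.4%) and 8 were called higher in cells. Lower interactions made up 14.4% of all microRNAs tested and 28.1% of all features. Higher cell calls numbered 24 of the 125 microRNAs tested and made up 5.28% of all features. The neural microRNA miR-9-3p rose in cells from 7.64, 3.96 and 7.30 to 18.1, 29.5 and 24.3, with vesicle means of 12.8 ± 1.09 (SD, n = 3) against 8.74 ± 2.63 and an interaction of -2.33 (SE 0.48, adjusted p = 0.000704). For miR-126-3p, at -1.68 (SE 0.62), the call was lost in 7 alternatives, 6 of which left out 1 library: wild type vesicle replicate 2, ATG7-/- vesicle replicate 1, wild type cell replicate 1 or 2, or ATG7-/- cell replicate 1 or 2.

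Some microRNA entries with a lower interaction lie inside snoRNA genes. Of 6 tested microRNAs that lie inside an annotated snoRNA or scaRNA gene on the same strand, 5 had a lower interaction, against 11 of the 98 other microRNAs with a RefSeq position. miR-664b-3p lies inside SNORA36A (chromosome X, 154768635 to 154768656) and came to -3.62 (SE 0.40, adjusted p = 1.56e-06), beside -2.88 for that snoRNA, listed as ACA36. miR-664a-3p lies inside SNORA36B and came to -2.32, beside -2.38 for ACA36B. The 2 arms of miR-6516 lie inside SCARNA16 (ACA47, at -1.42) and came to -1.51 and -1.21. Overlapping entries may hold the same reads.

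The most abundant microRNA entry was miR-6724-5p, whose copies lie in ribosomal DNA repeats. It held 554716, 349265 and 390083 normalised reads in wild type vesicles and 144265, 186575 and 170412 in ATG7-/- vesicles, and between 6919 and 9219 in the 6 cell libraries. The interaction was -1.36 (SE 0.30, adjusted p = 0.00114). The 5 microRNAs with a higher interaction were miR-505-5p (1.54), miR-296-3p (1.52), miR-877-5p (1.09), miR-342-3p (0.96) and miR-99b-5p (0.70), all below 400 normalised reads on average in each group. They were named after their values were seen, and their number ran from 1 to 16 when 1 library was left out, with 16 without wild type vesicle replicate 1.

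MicroRNAs known as markers of blood and liver, which serum or other cells could bring, were present in vesicles and lower in cells. Of the 8 that the deposited features include, 3 were tested and none had a called interaction. Their summed level was 90.5 to 137 normalised reads in wild type vesicles, 183 to 265 in ATG7-/- vesicles, 5.84 to 9.89 in wild type cells and 8.19 to 15.0 in ATG7-/- cells. The vesicle sums did not overlap between genotypes, and those of ATG7-/- were above the vesicle levels of let-7b-5p, miR-28-3p and miR-9-3p. That sets a sum over 8 microRNAs beside single ones. In cells 4 of the 8 were at 0 in both genotypes, and in ATG7-/- vesicles 1 was at 0. The red cell microRNA miR-486-5p was higher in ATG7-/- vesicles (1.17, SE 0.36, adjusted p = 0.00967) beside a cell change of 1.11 (SE 0.36, adjusted p = 0.0593). The part of such RNA in the microRNA results was not tested.

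Transfer RNA genes moved the other way from snoRNAs. Of 471 tested, 206 had a higher interaction and 7 a lower one, with medians of 0.66 for the interaction, 0.47 in vesicles and -0.18 in cells. Gene copies often hold nearly the same reads: with each isodecoder counted once, 113 of 307 were higher and 5 lower. The count also depended on scaling, with 50 higher among tRNA genes when library totals were used, for which the median interaction of tRNA genes was 0.20.

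Glutamate tRNAs rose in vesicles with no call in cells. Of 25 genes, 17 had a higher interaction and 21 a higher vesicle level, and 0 were called in cells (medians 1.22, 1.18 and -0.04). These 25 genes form 17 isodecoders, of which 9 had a higher interaction and 13 a higher vesicle level (medians 0.96, 1.05 and -0.11). Over all 307 tRNA isodecoders 113 had a higher interaction and 129 a higher vesicle level. The most abundant, tRNA-Glu-CTC-1-2, held 107969, 116974 and 108111 normalised reads in wild type vesicles and 262978, 257809 and 233402 in ATG7-/- vesicles. In cells it held 4506, 5394 and 4610 against 5112, 3423 and 5894, which overlapped. The interaction was 1.22 (SE 0.28, adjusted p = 0.00191), and its call was lost with library totals. A larger one, 1.95 (SE 0.39, adjusted p = 0.000548), belonged to tRNA-Glu-TTC-2-2, where the vesicles rose from 7297, 8509 and 8154 to 22901, 20174 and 17394.

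Aspartate tRNAs reached a higher interaction by the other route. Of 15 genes 10 had a higher interaction, none had a vesicle call, and 11 were called lower in cells (medians 0.68, 0.09 and -0.61). These 15 genes form 5 isodecoders, of which 2 were higher. In cells tRNA-Asp-GTC-1-1 fell from 413, 662 and 628 to 183, 246 and 228 normalised reads. Its vesicles held 2557, 3475 and 3374 against 3927, 4268 and 4197. The interaction was 1.76 (SE 0.27, adjusted p = 5.56e-05), from a cell change of -1.35 (SE 0.19, adjusted p = 0.000322) and a vesicle change of 0.41 (SE 0.19, adjusted p = 0.0735). The call for the abundant tRNA-Asp-GTC-2-1, at 0.68 (SE 0.26), was lost with TMM scaling, library totals, no filter on low values and size factors within compartments. It was also lost in 6 of the 12 cases with 1 library left out (wild type vesicle replicate 2, ATG7-/- vesicle replicate 1 or 3, wild type cell replicate 1 or 2, ATG7-/- cell replicate 1), as were the calls of its copies tRNA-Asp-GTC-2-2 and tRNA-Asp-GTC-2-3, so the count of 10 rests in part on such calls.

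Of the 27 tRNA genes with a cell call, an interaction call and no vesicle call, 25 fell in cells and 10 were aspartate tRNAs. Another is tRNA-Phe-GAA-4-1, whose interaction of 2.05 (SE 0.46, adjusted p = 0.00137) was the largest higher one among the features named by size. It was a low feature, with vesicle means of 6.65 ± 2.16 (SD, n = 3) against 10.1 ± 0.769 and cell values of 29.3, 27.7 and 19.7 against 7.41, 8.19 and 9.99. The other 2 of the 27, tRNA-Lys-CTT-2-5 and tRNA-Lys-CTT-11-1, rose in cells by 1.41 and 1.65. In their family 1 library stood apart: tRNA-Lys-CTT-2-4 held 2967, 9828 and 4927 in the 3 ATG7-/- cell libraries against 2328, 2575 and 1928 in wild type.

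Opposite calls in the 2 compartments included 7 tRNA genes, all higher in vesicles and lower in cells. Gene copies are counted here: with each isodecoder counted once, opposite calls over all features fell to 2. Largest among them was tRNA-Gly-CCC-2-2, which rose from 4582, 5495 and 4769 to 14194, 13452 and 11868 in vesicles and fell from 455, 497 and 512 to 315, 336 and 375 in cells. Neither pair of groups overlapped, and the interaction was 1.93 (SE 0.21, adjusted p = 1.56e-06). tRNA-Asn-ATT-1-1 came to 1.76 (SE 0.35) and tRNA-Gly-CCC-6-1 to 1.25 (SE 0.24), with cell changes of -0.77 and -0.54 whose adjusted p-values were 0.0475 and 0.0461.

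By isotype, the share of genes with a higher interaction was largest for methionine (10 of 10), proline (19 of 21), histidine (9 of 10), initiator methionine (8 of 9) and tryptophan (6 of 7). Valine had 24 of 32, with tRNA-Val-CAC-1-6 at 1.65 (SE 0.28, adjusted p = 0.000119), and glycine had 21 of 33. Leucine had 1 of 31 and isoleucine 3 of 24. Over all tRNA genes tested the share was 43.7%, and over all features 24.3%. By isodecoder the counts were 7 of 7 for methionine, 6 of 8 for proline and 4 of 5 for tryptophan. Counted that way, valine had 15 of 22, glycine 10 of 18 and all isotypes together 113 of 307. Histidine and initiator methionine had 1 of 2 each, so their gene counts rest on copies of 1 RNA each. Alanine combined 12 higher interactions of 48 (25%), near the share of all features, with 14 genes lower in cells. Of all 471 tRNA genes tested 51 were called lower in cells. Lysine had 9 higher and 2 lower of 30, with 17 called higher in vesicles and 9 in cells. For glutamine the calls and the median over gene copies differed in sign, with 0 higher and 3 lower calls of 21 and a median of 0.52. With each isodecoder counted once the median was 0.08, with 0 higher and 2 lower of 12, so the size of that median rests on copies.

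**Figure D4:**
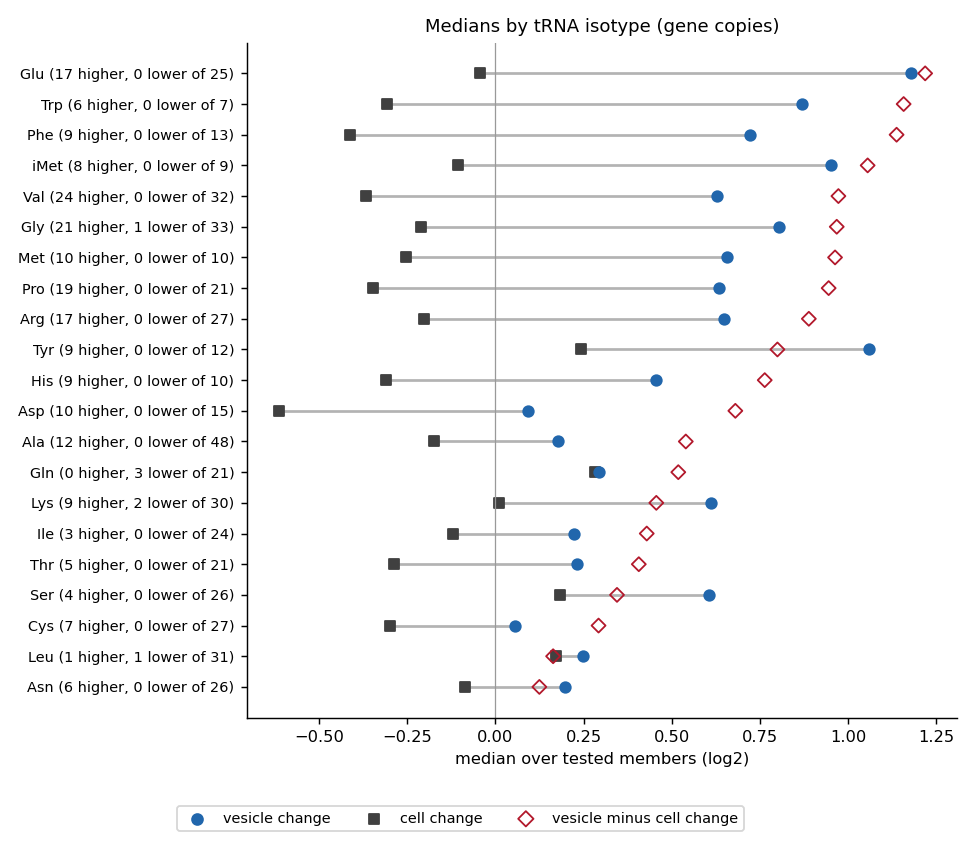
Median vesicle change (circles), cell change (squares) and interaction (diamonds) over the gene copies of each tRNA isotype with at least 5 tested genes, on a log2 axis, ordered by the interaction. Glutamate has its circle at 1.18 and its square near 0, while aspartate has its circle near 0 and its square at -0.61.

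The serine tRNAs of the AGA-2 family rose in both compartments. They were 6 of the 10 tRNA genes called higher in both compartments without an interaction call, but are copies of 1 isodecoder and count as 1 RNA. Of these copies, tRNA-Ser-AGA-2-6 came to 1.09 in vesicles and 0.77 in cells. Of 26 serine genes 15 were called higher in vesicles, 7 in cells and 4 for the interaction. With each isodecoder counted once these were 10, 2 and 4 of 19. The 38 mitochondrial-like tRNA entries had 9 tested members, of which 6 had a lower interaction, with medians of -0.62 in vesicles and 0.52 in cells. The most abundant of them, 3 tyrosine entries near -1.1, each lost the call without wild type or ATG7-/- vesicle replicate 1 or 3 and with microRNA scaling. For 2 of them the call was lost in 9 of the 12 omissions, the exceptions being wild type vesicle replicate 2, ATG7-/- vesicle replicate 2 and ATG7-/- cell replicate 3.

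The vault RNAs are printed because 2 of them begin with the same bases and moved differently in cells. Both lie on chromosome 5 on the plus strand, VTRNA1-1 from 140711275 to 140711373 and VTRNA1-2 from 140718925 to 140719013 (GENCODE release 29, GRCh38).
VTRNA1-1: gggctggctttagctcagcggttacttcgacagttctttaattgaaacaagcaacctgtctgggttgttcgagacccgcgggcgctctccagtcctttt
VTRNA1-2: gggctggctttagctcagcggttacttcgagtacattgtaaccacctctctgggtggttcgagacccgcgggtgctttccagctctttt
In cells VTRNA1-1 fell from 451, 668 and 390 to 293, 191 and 238 normalised reads and VTRNA1-2 rose from 271, 255 and 200 to 423, 711 and 548. In vesicles VTRNA1-1 held 266, 245 and 254 against 291, 308 and 349, and VTRNA1-2 held 237, 253 and 206 against 390, 367 and 397. The interaction was 1.35 (SE 0.28, adjusted p = 0.000888) for VTRNA1-1 and -0.46 (SE 0.27, adjusted p = 0.163) for VTRNA1-2, whose higher vesicle level (0.73) went with a higher cell level (1.19). VTRNA1-3 came to 0.26 (SE 0.27).

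Y RNAs, partners of the Ro protein, split within the family. RNY3 rose in vesicles from 6655, 5919 and 4933 to 11921, 14068 and 15214 normalised reads, with cell values of 12942, 14359 and 13114 against 18070, 17626 and 13584 and an interaction of 0.96 (SE 0.26, adjusted p = 0.00476). RNY1 came to 0.85 (SE 0.27, adjusted p = 0.0134) and RNY4 to -0.00 (SE 0.24). RNY5 came to -0.73 (SE 0.29, adjusted p = 0.0426), a call that was lost without any 1 of 8 libraries. Both calls for RNY1 and RNY3 were lost with library totals.

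Among spliceosomal RNAs, U5 had a lower interaction of -1.27 (SE 0.26, adjusted p = 0.000824), falling in vesicles from 6719, 9015 and 8332 to 3708, 4240 and 2811. U6 had a higher one of 0.93 (SE 0.29, adjusted p = 0.0129), rising from 16194, 10912 and 13857 to 26190, 34817 and 23075, which was lost with TMM scaling and library totals. U1, U2 and U4 came to -0.25, -0.43 and -0.26, U7 to -0.34 and the telomerase RNA hTR to 0.21, none of them called.

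A few features changed in both compartments with a called difference. U82 fell by 1.58 in vesicles and by 0.66 in cells, and miR-4485-3p fell by 4.19 and by 1.15, so that both fell further in vesicles. tRNA-Asn-GTT-8-1 fell by 0.49 in vesicles and by 1.62 in cells, the larger fall being in cells. These 3 were named after their values were seen.

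As shares of all reads, the same comparison rests on 400 arrangements of the genotype labels, for which the smallest p is 0.005 (exact permutation test, two-sided, adjusted over 11 classes). These arrangements stand for no genotype effect in either compartment, not for equal effects in both. H/ACA box snoRNAs went from 2.84% ± 0.115 to 0.708% ± 0.132 of vesicle reads (SD, n = 3) and from 6.16% ± 0.290 to 6.57% ± 0.723 of cell reads, a difference of -2.54 percentage points (exact permutation, adjusted p = 0.044). That call was lost in 7 of the 12 cases with 1 library left out, and without the ribosomal DNA entries (exact permutation, adjusted p = 0.055). C/D box snoRNAs went from 22.2% to 7.12% in vesicles and from 61.4% to 56.2% in cells, a difference of -9.82 points that was not called (exact permutation, adjusted p = 0.232). tRNA went from 50.0% to 80.0% in vesicles and from 23.7% to 26.7% in cells, a difference of 27.0 points that was not called either (exact permutation, adjusted p = 0.141). For C/D box snoRNAs and tRNA the cell change had the sign of the vesicle change. Arrangements that reverse the cell labels alone then exceed the observed difference, so a low p was out of reach. The missing calls therefore do not show that the differences were absent. The microRNA share had a difference of -10.9 points (exact permutation, adjusted p = 0.0275). Without the entries of ribosomal DNA repeats, miR-6724-5p among them, it was -0.589 points (exact permutation, adjusted p = 0.0642).

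The same contrast in the ATG12-/- clone (D9) shares no ATG7-/- library with this one but shares all wild type libraries, so the values stand side by side only. ATG7 and ATG12 interactions were -4.77 and -4.04 for ACA28, -4.42 and -2.93 for ACA62, -3.64 and -0.64 for snR38A, 1.41 and 2.85 for U22, -1.67 and -1.50 for miR-19b-3p, 1.76 and 1.46 for tRNA-Asp-GTC-1-1, and 1.22 and 0.06 for tRNA-Glu-CTC-1-2. The difference between the 2 clones was called for 388 of 890 features. Its estimate does not use the wild type libraries, but its SE and p do, through the spread fitted over all 18 libraries. Of those just named it was called for ACA28 (adjusted p = 0.0279), ACA62 (adjusted p = 4.26e-05), snR38A (adjusted p = 3e-06), U22 (adjusted p = 0.00188) and tRNA-Glu-CTC-1-2 (adjusted p = 0.000766). It was not called for miR-19b-3p or tRNA-Asp-GTC-1-1 (adjusted p = 0.73 and 0.534).

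**Figure D5:**
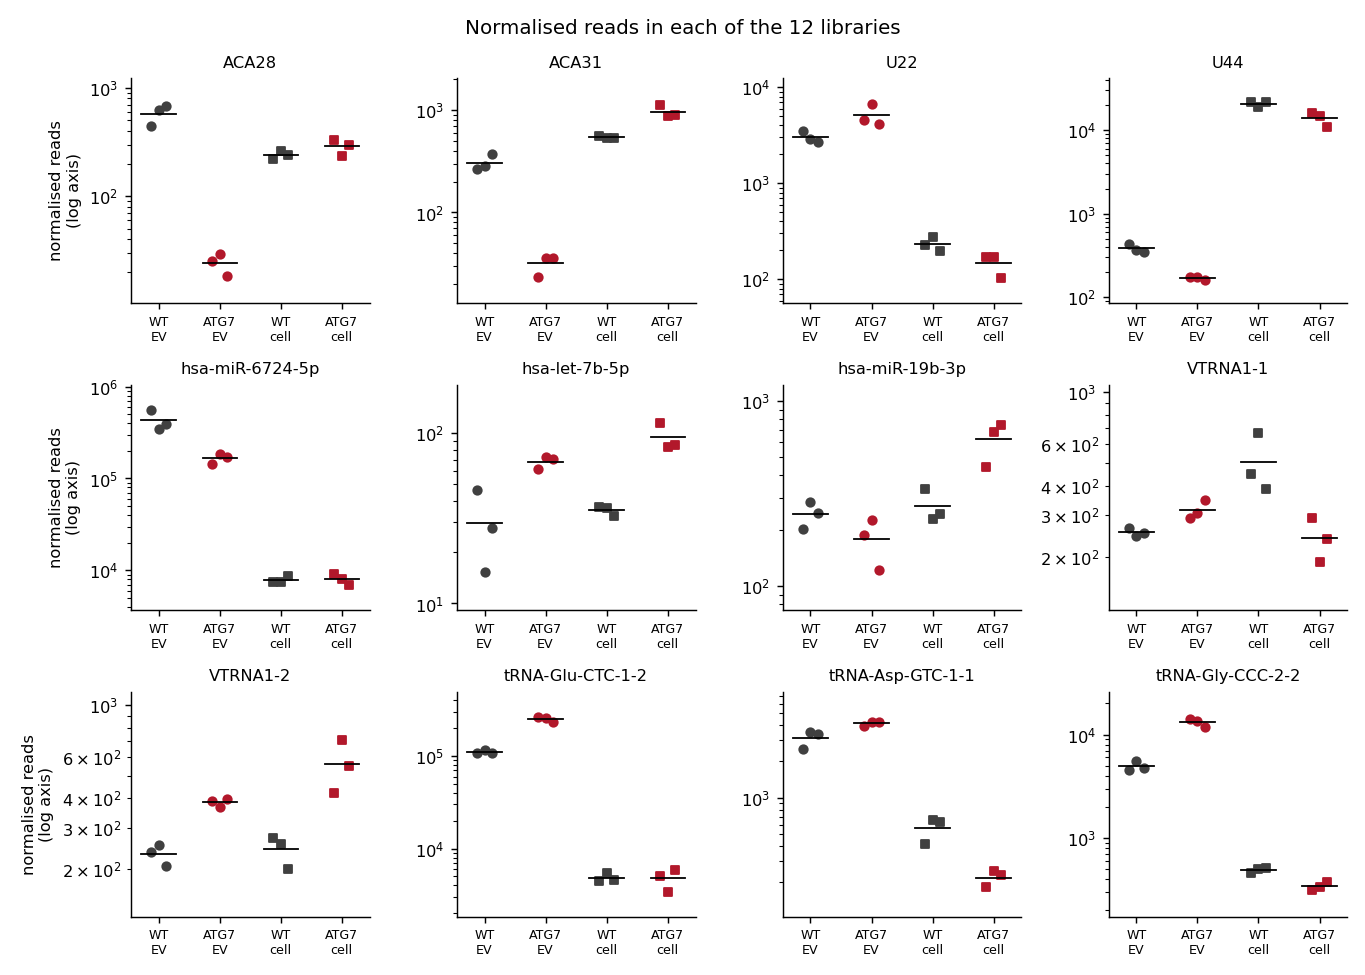
Normalised reads (log axis) in each of the 12 libraries for 12 named features, with circles for vesicles, squares for cells, dark for wild type, red for ATG7-/- and a bar at the mean of each group. ACA28 drops in the vesicle pair only, let-7b-5p rises in both pairs, miR-19b-3p rises in the cell pair, and tRNA-Asp-GTC-1-1 drops in the cell pair.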

How the data were processed

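Per the labels' protocols, total RNA was isolated with a column kit and made into libraries with a SMARTer small RNA kit over 12 PCR cycles, read as single 50 bp reads. The submitters' processing notes name DESeq2, bedtools, Bowtie2 2.3 and cutadapt 2.3, and hg38 and GRCh38 as builds. The annotation, the counting of reads with several matches and any filter are not given in the sources used here. The deposited values are a scaled signal. In every library 100% of them were whole multiples of 1 step (tolerance 1e-06), so each library's reads were recovered by dividing by its step.

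The 12 libraries were fitted together on log2 (value + 1) with limma 3.58.1 (intensity trend) in R 4.3.3, with 1 term per group and Benjamini-Hochberg adjustment over the 890 features that reached 10 in 3 libraries. All tests are two-sided. edgeR 4.0.16 and DESeq2 1.42.0 on the recovered reads, other scalings, pseudocounts, filters and blocks, and leaving out each library were tried as alternatives. On data simulated for this interaction, 68.9% of features changed by 1 on the log2 scale were called, 100% of those changed by 2 and 0.435% of unchanged ones. The simulated reads had the same fixed spread for every feature, with no other genotype change and no shift shared within a library. Only features above a minimum level in every group were changed, so these rates may not carry over to the real libraries.

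Named were the 10 largest called interactions in each direction, up to 5 features of each pattern of calls, the 5 most abundant in wild type vesicles with a vesicle and an interaction call, the 4 most abundant of each list, and the small classes. The comparison, the lists and this rule were chosen with earlier results of these data known. The labels number the replicates as biological ones of 1 clone without saying what separates them, so p-values measure the spread between these samples. PCR copies are not independent molecules. Some features that the naming rule selects are not reported here.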

Additional observations from a re-analysis of the deposited data

Results flagged for a closer look

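For 5 RNAs the interaction in the ATG7-/- clone and the same contrast in the ATG12-/- clone had opposite signs. Only 1 of the 2 was called in each, the ATG7 one for U3 and the ATG12 one for the other RNAs. The sign of the uncalled value is not settled, so opposite changes are not shown. The test of the difference between the 2 contrasts was called in each (limma, adjusted over 890 features), as it was for 388 of all 890 features. The 2 contrasts share the wild type libraries. The estimate of their difference does not use those libraries, though its SE and p do. For U3 the values were -1.07 and 0.56, a difference of -1.63 (SE 0.26, adjusted p = 4.56e-05). U1 gave -0.25 and 0.65, a difference of -0.90 (SE 0.23, adjusted p = 0.0033). U2 gave -0.43 and 0.78, a difference of -1.21 (SE 0.23, adjusted p = 0.000302). U4 gave -0.26 and 0.63, a difference of -0.89 (SE 0.19, adjusted p = 0.000766). VTRNA1-2 gave -0.46 and 0.95, a difference of -1.41 (SE 0.25, adjusted p = 0.000135).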

How the results depend on the processing

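Counts below are of features, against 216 higher and 250 lower interactions, 281 and 281 vesicle calls, 47 and 56 cell calls, 407 features with vesicle and interaction calls and no cell call, 27 called the same way in both compartments, 34 with cell and interaction calls only, and 8 opposite. With TMM factors from microRNAs the cell calls were 15 higher and 462 lower, the vesicle calls 146 higher, and the 4 groups 143, 73, 145 and 69. With TMM over all tested features cell calls were 35 lower and 5 features were opposite. With library totals interaction calls were 53 higher, vesicle calls 127 higher and cell calls 37 lower, with 5 opposite, and with size factors set within each compartment 4 were opposite. With each isodecoder once, 123 interactions and 174 vesicle changes were higher and 33 cell changes lower, with 22 in the cell and interaction group and 2 opposite. edgeR called 75 higher in cells and gave 16 opposite, array weights gave 42 the same way and 17 opposite, and no filter on low values gave 32 lower in cells, 21 and 2 opposite.

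The labels give no pairing by replicate number, and correlations of same-numbered samples ran from -0.25 to 0.21 over the group pairs, so the numbers were not taken as pairs. Between wild type vesicles and ATG7-/- cells all 3 were over 0.1 (0.21, 0.10 and 0.17) and each was the best match of its number, a hint from the data only. With a replicate block 33 features were lower in cells, 17 were called the same way and 1 was opposite. Leaving out 1 library gave 20 to 58 higher and 13 to 63 lower in cells, 11 to 34 called the same way, 15 to 37 with cell and interaction calls only, and 0 to 11 opposite. Cell calls moved by over 1.5 times without wild type cell replicate 1 (29 lower), 2 (23 higher, 13 lower) or 3 (20 higher, 22 lower), or ATG7-/- cell replicate 3 (30 higher). The interaction counts were within 1.5 times under each of these omissions, and the lower counts of C/D box snoRNAs (104 to 120), H/ACA box snoRNAs (79 to 88) and scaRNAs (16 to 20) were too.

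Of the class shares, counting isodecoders once gave -0.629 points for Y RNAs, -0.0883 for snRNAs (neither called) and -0.177 for scaRNAs (called). In these Y RNA and snRNA shares the vesicle and cell changes had the same sign, so a low p was out of reach. Without ribosomal DNA entries H/ACA box snoRNAs gave -3.01, snRNAs -3.61, scaRNAs -0.154 and microRNAs -0.589, none of them called, and Y RNAs gave -1.31 (called). With all 12 libraries the Y RNA and snRNA differences were -1.09 and -2.47 points, both called (exact permutation, adjusted p = 0.044 each). Leaving out 1 library gave -2.94 to -2.24 for H/ACA box snoRNAs, -1.28 to -0.806 for Y RNAs and -2.72 to -2.18 for snRNAs. Each of these calls was lost in 7 of the 12 omissions. The ranges were -12.1 to -9.43 for microRNAs, -0.119 to -0.105 for mitochondrial-like tRNAs and -0.142 to -0.111 for scaRNAs. For single named features, 202 values under the alternatives lost a call, 79 gained one and 4578 stayed on their side of the threshold. Among the latter 116 had the opposite sign without a call in either setting, for 34 features such as let-7b-5p, RNY4 and U76, and no called value changed sign. The median interaction of all features turned from 0.07 to -0.17 with TMM over all tested features and to -0.39 with library totals. With 3 libraries a group, part of the changes of 1 on the log2 scale went uncalled in simulated data, so changes of that size or less may not be detectable at this depth.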
